A study of Caenorhabditis elegans with 2 samples.

Results

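The genes described here encode the factors that carry the ribosome through initiation and elongation of translation, and the aminoacyl-tRNA synthetases that charge tRNAs with amino acids. They were taken by name from the protein-coding genes of Caenorhabditis elegans: all genes named eif-, eef-, ife-, iff- or ifg-, and all genes named by a single letter followed by ars-1 or ars-2. The rule gave 70 of 19973 nuclear protein-coding genes, of which 39 were translation factors and 31 were synthetases. No binding value entered the rule. The 39 factors were 11 subunits of eIF3, 6 elongation factors, 5 subunits of eIF2B, 3 subunits of eIF2, 6 genes of the cap-binding complex eIF4E and eIF4G, 2 genes for eIF5A and 6 other genes named eif-.

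The study mapped the binding of SNPC-4 in first-stage (L1) larvae by chromatin immunoprecipitation with sequencing (ChIP-seq). The worm form of SNAP190, SNPC-4 belongs to SNAPc, the complex that activates small nuclear RNA genes. All animals were of strain OP179, which carries the unc-119 allele ed3 and the transgene wgIs179 with eGFP-tagged snpc-4. Sexes were pooled and whole worms were used, so a peak cannot be assigned to a tissue. Replicates 1 and 2 are separate biological samples that form 1 group, and an untagged strain was not analysed here. The 4 peak lists used, all on build ce11, were a thresholded list of 2347 peaks made by the authors from both replicates, and relaxed lists of 30000 peaks each from the pooled data, from replicate 1 and from replicate 2. The relaxed lists were deposited as peaks and background together, so a summit found only there can be background. The signal of a peak is the authors' enrichment value and can be compared only within a list. Sequencing depth is unknown, because the lists hold no reads.

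Translation begins when eIF2 brings the initiator tRNA to the small ribosomal subunit, eIF3 holds that complex together and the eIF4 factors lead it to the cap of the mRNA. eIF2B recharges eIF2 with GTP, and the elongation factors eEF1 and eEF2 then deliver charged tRNAs and move the ribosome. SNAPc is known for the promoters of small nuclear RNA genes and, in nematodes, of the spliced leader (SL) RNA genes. Spliced leaders are joined to most worm mRNAs in place of the original 5′ end, so that an annotated 5′ end can be a trans-splice site that lies downstream of the promoter.

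A gene was counted as having a summit where the highest point of a peak was no more than 500 bp from any of its transcripts' 5′ ends. Offsets below are distances of the summit from that 5′ end, negative where the summit lies upstream. The sequences under 6 of the summits are shown because they span the range of signal and both roles, and because words that recur at summits of other genes stand in all but the last. Each is the summit base with the 50 bases to either side, read 5′ to 3′ on the strand of the gene, from the RefSeq genome on build ce11. Capitals mark a match, on either strand, to the word ACGCGC or to GCGCAC, to the repeat GAGAGA, to the word GACGCA or to the word GAGCGC; capitals that run together are overlapping words.
eif-3.B, II:14795114-14795214, plus strand: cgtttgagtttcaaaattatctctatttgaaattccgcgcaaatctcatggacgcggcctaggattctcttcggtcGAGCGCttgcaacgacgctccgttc
eif-2Bgamma, II:6967734-6967834, minus strand: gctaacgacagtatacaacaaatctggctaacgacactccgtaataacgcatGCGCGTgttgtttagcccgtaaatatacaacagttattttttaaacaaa
eef-1A.2, X:7823228-7823328, plus strand: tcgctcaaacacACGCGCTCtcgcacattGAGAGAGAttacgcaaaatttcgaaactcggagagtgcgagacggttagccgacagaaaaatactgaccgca
kars-1, II:7072719-7072819, minus strand: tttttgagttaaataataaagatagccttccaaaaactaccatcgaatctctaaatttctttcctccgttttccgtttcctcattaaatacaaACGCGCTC
eif-3.G, II:8442406-8442506, plus strand: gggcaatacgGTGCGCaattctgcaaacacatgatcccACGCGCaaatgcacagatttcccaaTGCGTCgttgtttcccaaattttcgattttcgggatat
iff-2, II:8561394-8561494, minus strand: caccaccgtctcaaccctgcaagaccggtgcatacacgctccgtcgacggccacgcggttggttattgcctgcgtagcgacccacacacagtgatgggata

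SNPC-4 summits lay near the 5′ ends of many translation factor genes and of few synthetase genes. In the thresholded list 19 of 39 factors had a summit (48.7%, exact 95% binomial interval 32.4 to 65.2%), against 4 of 31 synthetases (12.9%, 3.63 to 29.8%). Of all nuclear protein-coding genes, 8.35% had one. The interval of the synthetases includes this share, and that of the factors lies above it. The synthetase share depended on the setting and reached 22.6% in an alternative given at the end. For all members together the count was 23 of 70 (32.9%, 22.1 to 45.1%). Intervals cover counting error over genes only, and no p-value is given, because the genes were chosen with results of these data known and the samples form a single group.

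In the relaxed lists the gap between the roles was narrower. The pooled list placed a summit at 31 factors (79.5%) and 19 synthetases (61.3%), against 37.9% of all protein-coding genes. Replicate 1 placed one at 32 factors (82.1%) and 18 synthetases (58.1%), against 38.4%. Replicate 2 placed one at 29 factors (74.4%) and 19 synthetases (61.3%), against 38.7%. Both roles thus lay above the background in each relaxed list, with factors above synthetases each time. A summit in both replicates was found at 43 members (61.4%), against 23.9% of all protein-coding genes, though not always at the same site.

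**Figure D1:**
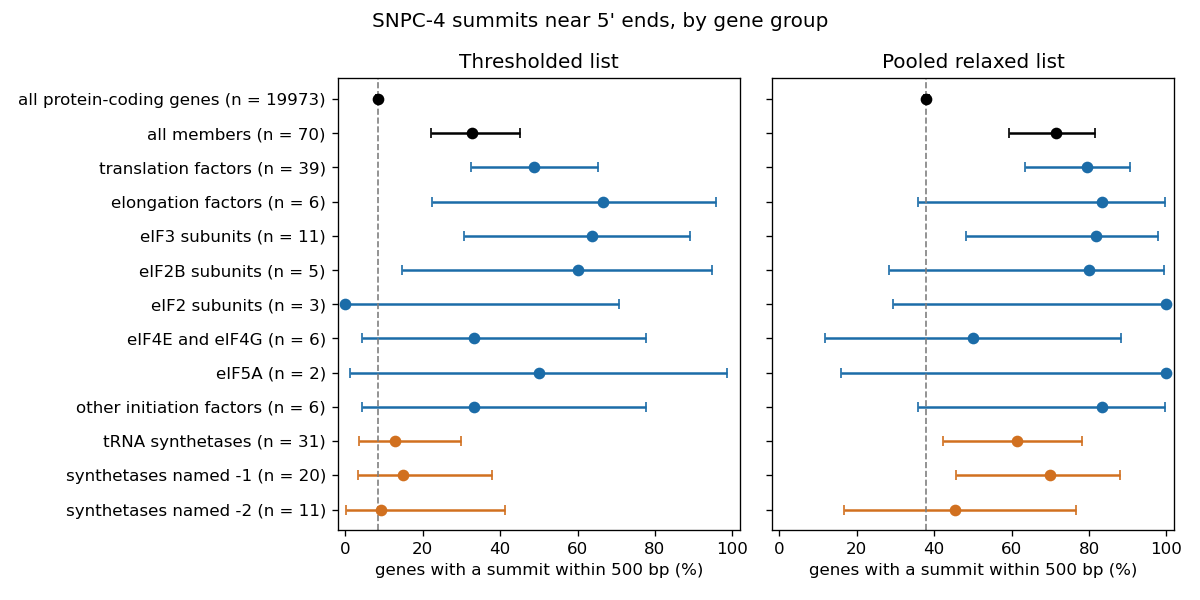
Percentage of genes with a SNPC-4 summit within 500 bp of a transcript 5′ end (x axis) for each group of members (y axis), in the thresholded list (left) and the pooled relaxed list (right); bars are exact 95% binomial intervals over genes and dashed lines mark all protein-coding genes (8.35% and 37.9%). In the thresholded list factors lie at 48.7% and synthetases at 12.9%, and the eIF2 subunits are at 0 of 3 there while all 3 have a pooled summit.

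Of the 6 elongation factor genes, 4 had a thresholded summit (66.7%), with a median signal of 119.2 against 55.1 over all 1668 protein-coding genes with one. eef-1A.1 encodes the factor that brings charged tRNAs to the ribosome, and its promoter, under the older name eft-3, is widely used to drive transgenes. Its summit had a signal of 173.5 and lay at −385 bp, and the signal there was 82.7 in replicate 1 and 92.7 in replicate 2. eef-1A.2, a second gene for that factor, had a signal of 83.5 at −376 bp, with 44.2 in replicate 1 and 42.6 in replicate 2. The summits of both eEF1A genes therefore lay well upstream, at nearly the same distance. eef-2, the translocase, had a signal of 126.0 with the summit at 4 bp, inside its 5′ untranslated region, and 55.4 and 74.9 in replicates 1 and 2. eef-1B.1, a subunit of the exchange factor of eEF1A, had a signal of 112.5 at −2 bp, with 52.1 and 56.1 in the replicates. Unlike the eEF1A genes, eef-2 and eef-1B.1 had their summit at the annotated 5′ end itself.

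The remaining elongation factor genes were eef-1B.2 and eef-1G, whose products belong to the same exchange complex. At eef-1B.2 a summit at −178 bp had a pooled signal of 24.1, below the 32.3 at which the thresholded list ends, with 13.2 in replicate 1 and 14.6 in replicate 2. eef-1G stood apart. In replicate 1 it had a summit at −20 bp with a signal of 43.3, rank 452 of 30000, and in replicate 2 one at −12 bp with 59.4, rank 390. Its signal was close to that of eef-1A.2 in replicate 1 and above it in replicate 2, yet the nearest summit of the pooled list lay 4119 bp away, and the gene therefore has no thresholded summit. Of the 1474 summits among the 2347 highest of replicate 1 that had a match within 100 bp among the 2347 highest of replicate 2, only 6 had no pooled summit within 500 bp, and eef-1G was 1 of them. Why the authors' pooled list lacks it was not tested.

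The eIF3 complex, the scaffold of the initiation complex, held the highest signals of all members. A thresholded summit was found at 7 of its 11 subunit genes (63.6%, 30.8 to 89.1%). eif-3.B, a core subunit, had a signal of 252.8, rank 113 of 2347, at −240 bp, with 114.7 in replicate 1 and 143.7 in replicate 2. eif-3.C, another core subunit, had 194.9 at −236 bp, with 103.5 and 90.8 in the replicates. eif-3.B was the highest member in each replicate as well, and eif-3.C the second in replicate 1 but not in replicate 2, where eef-1A.1 exceeded it. eif-3.E followed with 80.9 at −179 bp, and 44.8 and 40.6 in replicates 1 and 2.

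The other bound eIF3 genes lay between 39.8 and 47.8, all below the median of bound protein-coding genes. eif-3.D, whose human counterpart can bind the cap of some mRNAs, had 47.8 at −256 bp, with 29.0 in replicate 1 and 11.9 in replicate 2. eif-3.I had 46.5 at −199 bp, with 17.1 and 32.3. The replicates thus ranked these genes in opposite order. eif-3.H had 43.6 at −239 bp, with 24.5 and 19.2, and eif-3.G had 39.8 at −311 bp, with 14.8 and 22.5. Of the 4 subunits without a thresholded summit, eif-3.F had a pooled signal of 6.84 and eif-3.J one of 7.29, and eif-3.K and eif-3.L had no summit in any list. At eif-3.L only 3.60% of the 36-base words within 500 bp of the 5′ end of its gene record occur once in the genome, whereas at eif-3.K all of them do. The part of repeated sequence in the missing summit was not tested.

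The summits of the complex that recharges eIF2 stood at 3 of 5 genes, while none of the 3 genes for eIF2 itself had one. eif-2Bgamma had a signal of 112.3 at −136 bp, with 52.0 in replicate 1 and 61.9 in replicate 2. eif-2Bdelta had 56.4 at −39 bp, with 23.9 and 29.4, and eif-2Bbeta had 47.7 at −140 bp, with 27.7 and 14.9. The signal of eif-2Bgamma was higher than that of the other bound eIF2B genes in both replicates. eif-2Balpha reached a pooled signal of 19.97 at −107 bp, with 8.31 and 10.7 in replicates 1 and 2 within 100 bp of it, and eif-2Bepsilon, the gene of the catalytic subunit, had no summit in any list.

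For eIF2, eif-2gamma had a pooled signal of 15.4 at −136 bp, eif-2beta 10.2 and eif-2alpha 7.80. These values lie below the thresholded range but are present in the pooled list for all 3 genes. With 3 and 5 genes, the intervals of the shares overlap (0 to 70.8% for eIF2, 14.7 to 94.7% for eIF2B), and the difference was not tested.

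The cap-binding genes with a thresholded summit had low signals there. Of the 5 genes for eIF4E (ife-1 to ife-5) and the gene for its partner eIF4G (ifg-1), ife-3 and ife-2 had a thresholded summit. Their share was 33.3% (4.33 to 77.7%), and the interval includes the 8.35% of all protein-coding genes. ife-3, a form of eIF4E of the germ line, had a signal of 38.1 at −432 bp, with 25.4 in replicate 1 and 15.7 in replicate 2. ife-2, which can bind the trimethylated cap that the spliced leader brings, had 33.8 at −211 bp, with 14.5 and 20.4. Both were among the lowest of the bound members. ife-4 had a pooled signal of 13.2 and a replicate 1 signal of 14.5 but no replicate 2 summit, ife-1 had a summit in replicate 2 only, with 5.19, and ife-5 and ifg-1 had none in any list.

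Both genes for eIF5A, a factor that eases stalled elongation, were in the pooled list but differed in signal. iff-2, the form of the soma, had a signal of 144.7 at −77 bp, with 64.1 in replicate 1 and 81.6 in replicate 2. iff-1, the form of the germ line, had a pooled signal of 12.4 at −184 bp and 12.8 in replicate 1, with no summit in replicate 2. The signal of iff-2 was thus the higher in the pooled list and in replicate 1.

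Of the 6 other genes named eif-, eif-6 and eif-1 had a thresholded summit. eif-6, which keeps the large ribosomal subunit from joining too early, had a signal of 69.2 at −341 bp, with 25.8 and 47.3 in replicates 1 and 2. eif-1, which takes part in the choice of the start codon, had 41.8 at −403 bp, with 22.0 and 20.8. Below the threshold, eif-1.A, which works beside eIF1, had a pooled signal of 28.4 at −335 bp, with 16.8 in replicate 1 and 9.91 in replicate 2. eif-2D had a pooled signal of 25.1 at −147 bp, with 7.20 and 14.7. eif-2A had a pooled signal of 16.5 with no replicate 2 summit, and eif-4A3, the helicase of the exon junction complex, had its nearest pooled summit at −519 bp, just outside the window.

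Among synthetases, 3 of 20 genes with the suffix 1 (15%, 3.21 to 37.9%) and 1 of 11 with the suffix 2 (9.09%, 0.230 to 41.3%) had a thresholded summit. ears-2, a glutamyl-tRNA synthetase, had the highest signal of these, 103.3 at −44 bp, with 37.6 in replicate 1 and 61.3 in replicate 2. kars-1, the lysyl enzyme, had 68.6 at −354 bp, with 47.4 and 23.3. mars-1, the methionyl enzyme, had 37.7 at −320 bp with 15.2 in replicate 1, and no replicate 2 summit within 100 bp of it; the nearest in replicate 2 lay at −453 bp with 26.5. aars-1, an alanyl enzyme, had 34.6 at −220 bp, with 17.4 and 22.5. In the thresholded list the signals of ears-2 and kars-1 exceeded the median of bound protein-coding genes, and those of mars-1 and aars-1 did not.

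By the usual naming, suffix 1 stands for the enzyme of the cytosol and suffix 2 for that of mitochondria, but the RefSeq product names do not follow it throughout. They name a compartment for 14 of the synthetases, and call the product of aars-1 mitochondrial and that of aars-2 cytoplasmic. Sorted by product name, 1 of 10 cytoplasmic enzymes (mars-1) and 2 of 4 mitochondrial enzymes (aars-1 and ears-2) had a thresholded summit, as did 1 of 17 with no compartment named (kars-1). The order of the shares by product name is thus the reverse of that by suffix, and with these numbers neither order is outside counting error. In the pooled list 14 of 20 genes with the suffix 1 (70.0%) and 5 of 11 with the suffix 2 (45.5%) had a summit, whereas in replicate 2 the shares were 60.0% and 63.6%.

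Many synthetases were found in the relaxed lists alone. A summit in the pooled and both replicate lists but not in the thresholded list was found at 11 synthetases (35.5%) and 6 factors (15.4%), against 13.9% of all protein-coding genes. Genes with a thresholded summit cannot enter this count, which removes 19 of 39 factors, 4 of 31 synthetases and 8.35% of all protein-coding genes. These shares therefore cannot be compared directly. With those genes kept in, the shares were 64.1% of factors, 48.4% of synthetases and 22.1% of all protein-coding genes. Both counts ask only for a summit within 500 bp in each list, so the lists can differ in the site. Among the 11 synthetases and 6 factors, the summits of replicates 1 and 2 lay at −403 and 124 bp at yars-1, and at −129 and −343 bp at eif-2gamma. Replicate values given next are those of the replicate summit nearest to the pooled one and within 100 bp of it. Taking the pooled summit nearest to each 5′ end, tars-1, the threonyl enzyme, had the highest signal of these members, 28.7 at −364 bp, with 16.6 in replicate 1 and 15.3 in replicate 2. At nars-1, the asparaginyl enzyme, the nearest pooled summit had 15.8 at 186 bp, while a farther one inside the window had 29.1, slightly above tars-1. vars-1, the valyl enzyme, had 25.7 at −50 bp, with 17.6 in replicate 2 and no replicate 1 summit within 100 bp. dars-1, the aspartyl enzyme, had 23.1 at −139 bp, with 22.3 in replicate 1, at −45 bp, and 6.28 in replicate 2, at −137 bp. The replicates were thus close at tars-1 and uneven at vars-1 and dars-1. pars-2 (prolyl) had a pooled signal of 22.0, with 15.8 and 9.72 in the replicates, sars-2 (seryl) had 20.6, with 12.9 and 7.04, and lars-1 (leucyl) had 15.8, with 9.88 and 9.22.

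No summit in any list was found near 14 members (20%), against 44.3% of all protein-coding genes. Beside the 5 factors eif-2Bepsilon, eif-3.K, eif-3.L, ife-5 and ifg-1, these were the 9 synthetases dars-2, ears-1, fars-1, hars-1, iars-1, iars-2, pars-1, rars-1 and rars-2. Some missed the window narrowly. At iars-1 the nearest summit lay at −501 bp in replicate 1 and at −560 bp in the pooled list and in replicate 2. At hars-1 it lay at −583 bp in replicate 1. Of these 14 members, all but eif-3.L had only 36-base words that occur once in the genome within 500 bp of the 5′ end of the gene record. Other transcript 5′ ends were not examined for this. The synthetases for glutamate and proline thus had a summit at the gene with the suffix 2 (thresholded at ears-2, relaxed only at pars-2) and none at ears-1 and pars-1. These pairs were noticed after their values were seen.

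**Figure D2:**
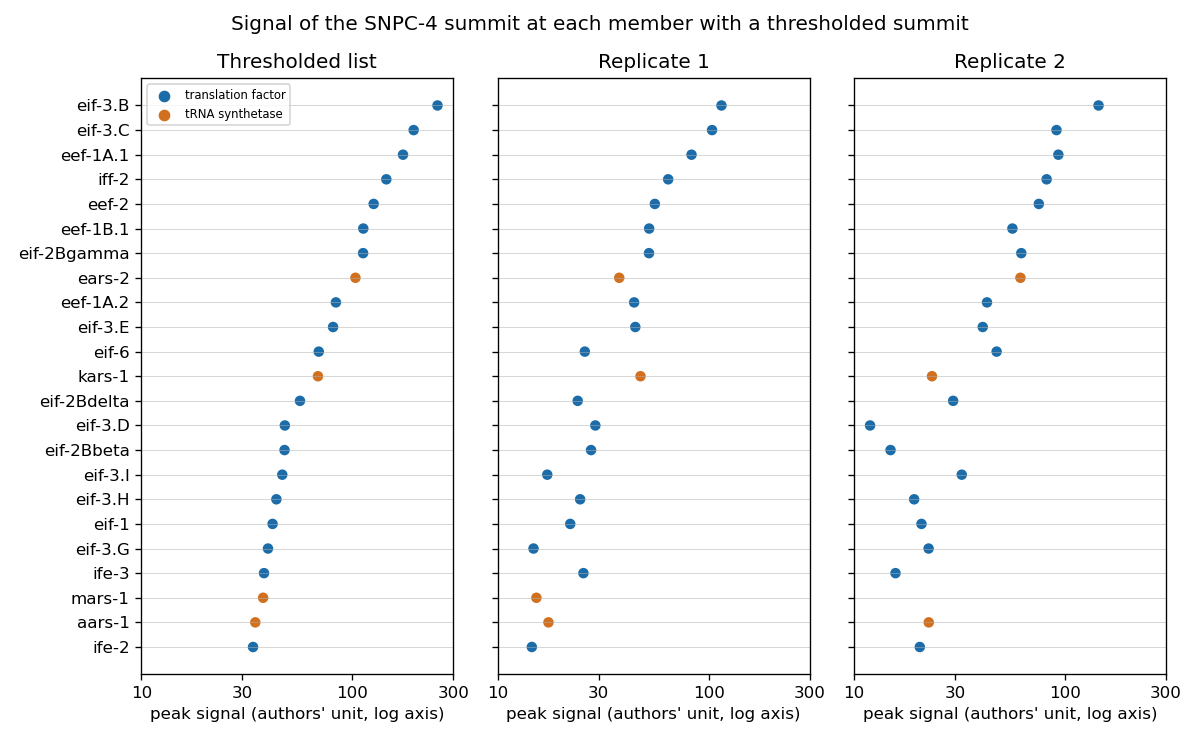
Signal (authors' unit, log x axis) of the summit at each of the 23 members with a thresholded summit, in the thresholded list and of the replicate 1 and replicate 2 summits within 100 bp of it; blue points are factors and orange points are synthetases. eif-3.B and eif-3.C lead in the thresholded list and in replicate 1, and mars-1 has no point in replicate 2.

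At the summits, the replicates ranked these members alike only in part. Over the 22 members with a summit of both replicates within 100 bp, signal ranged from 14.5 to 114.7 in replicate 1 and from 11.9 to 143.7 in replicate 2. Spearman's rho between the replicates was 0.76 over these members, a description of genes in libraries of one strain. Of the 23 members, 20 had their summit among the 2347 highest peaks of replicate 1, 19 among those of replicate 2 and 17 among both. The 7 members of highest thresholded signal, down to eif-2Bgamma, were above 50 in both replicates, and no other member was.

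**Figure D3:**
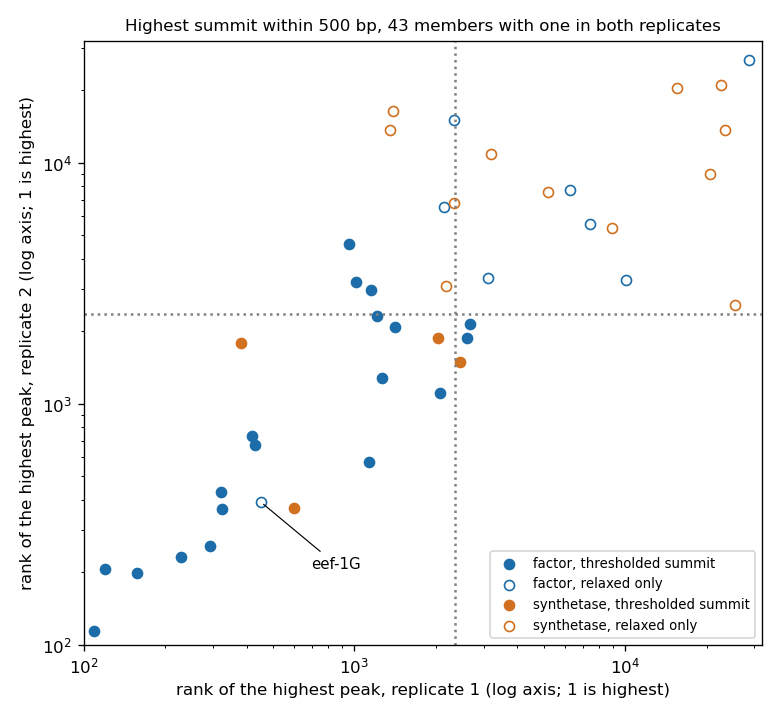
Rank of the highest summit within 500 bp in replicate 1 (x) and replicate 2 (y), both log axes with 1 the highest, for the 43 members with one in both; filled points have a thresholded summit, open points do not, and dotted lines mark rank 2347. The labelled open point is eef-1G (ranks 452 and 390), which lies among filled points.

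Most summits lay upstream of the annotated 5′ end. Of the 23 thresholded summits, 22 were upstream, against 1547 of 1668 over all bound protein-coding genes, so this was the rule at bound genes at large. In intergenic sequence there were also 22, a share not computed for all bound genes. The exception to both was eef-2. The median offset was −236 bp (quartiles −330.5 and −138), against −177 bp (quartiles −281 and −100) over all 1668 bound protein-coding genes. The farthest summit within the window was that of ife-3 at −432 bp, and the nearest outside it were those of dars-2 at −824 bp, cars-1 at −849 bp and eif-3.J at −926 bp.

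The offset was also set against the sign of trans-splicing. The word TTTCAG, the usual end of a nematode splice acceptor, stood within 20 bases upstream of an annotated 5′ end at 34 of 70 members (48.6%), against 20.7% of all protein-coding genes. Bound members with the acceptor word had a median offset of −256 bp (13 genes, −432 to −39 bp), and those without it −159.5 bp (10 genes, −341 to 4 bp). Over all bound protein-coding genes the medians were −217 bp (605 genes) and −166 bp (1063 genes). Both sets have the summit farther upstream at genes with the acceptor word, though the ranges of the members overlap. The word was counted at any annotated 5′ end of a gene, which need not be the end that the offset is measured from.

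**Figure D4:**
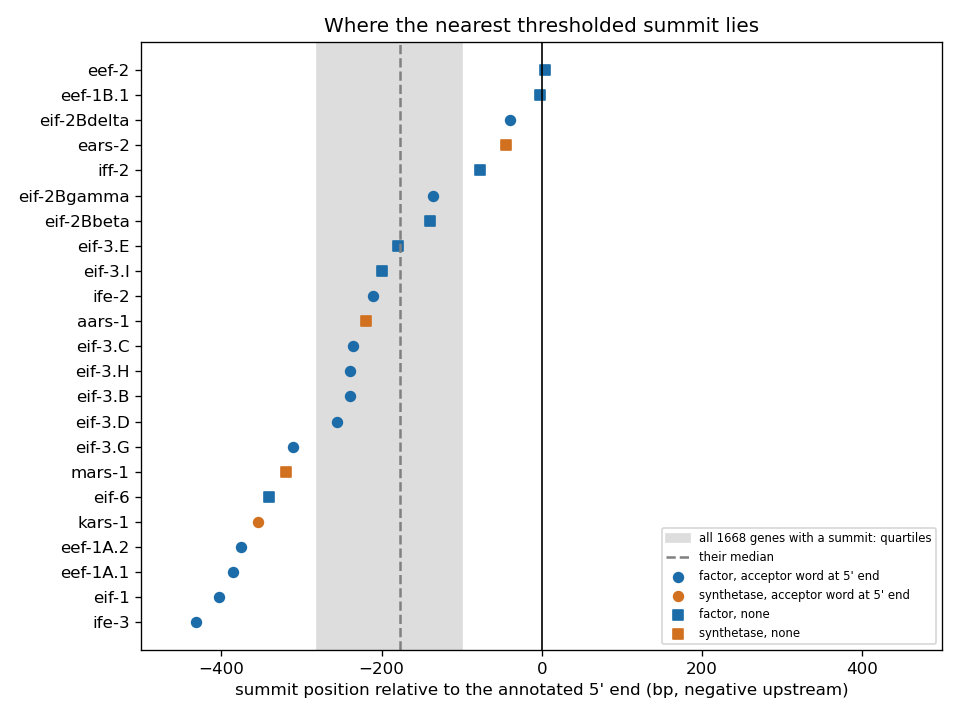
Position of the thresholded summit relative to the annotated 5′ end (x axis, bp, negative upstream) for the 23 bound members, circles where TTTCAG stands within 20 bases upstream of a 5′ end and squares where it does not; the grey band and dashed line are the quartiles and median of all bound protein-coding genes (−281, −100 and −177 bp). eef-2 and eef-1B.1 sit at the 5′ end, and ife-3, eif-1 and both eEF1A genes are the farthest upstream.

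Several summits could belong to a neighbour. Another protein-coding 5′ end lay within 500 bp of 12 of the 23 summits. For 11 of these the nearest such end was on the opposite strand (47.8% of members). Of all bound protein-coding genes, 46.2% had any opposite-strand 5′ end within 500 bp of the summit, which is a wider measure. For 7 members the neighbour was nearer to the summit than the member (30.4%, against 24.3% of all bound genes). They were eef-1A.1 (rfc-4, a subunit of the clamp loader of replication, at −156 bp), eif-6 (pbs-2, a proteasome subunit, at −325 bp), eif-1 (vps-24, an ESCRT subunit, at −15 bp), aars-1 (rga-1 at −177 bp), eif-3.D (R08D7.4 at −58 bp), eif-2Bbeta (Y47H9C.8 at −64 bp) and eif-3.H (C41D11.3 at −131 bp). At ears-2 the summit lay between 2 divergent 5′ ends, 44 bp from that of ears-2 and 48 bp from that of uncp-18. Counting each summit for its nearest gene alone left 16 members, 13 factors (33.3%) and 3 synthetases (9.68%), against 6.32% of all protein-coding genes. Which gene of such a pair a summit serves cannot be told apart in these lists.

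None of the 23 summits lay within 250 bp of the start of a tRNA, snRNA, SL RNA or snoRNA gene. Of 1261 summits at protein-coding genes, 1205 were likewise not near such a start, so the absence is not read as a trait of the members. The summit of eef-1A.1 lay 12 bp upstream of the miRNA gene mir-5549, and that was the only miRNA start within 250 bp. The share of summits near a miRNA start was not computed for all bound genes. Starts of other noncoding RNA genes lay near the summits of eef-1B.1 (F54H12.9, summit 61 bp downstream of its start) and eef-1A.2 (R03G5.8, summit 247 bp downstream).

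The sequence under the summits was also compared with that at small RNA genes. The most frequent 8-base word in the 100 bases upstream of snRNA and SL RNA genes with a thresholded summit was CGGAACCC, found in 20 of 56 distinct upstream sequences (35.7%, both strands searched). It stood within 50 bases of 0 of the 23 member summits, of 31 of 1261 summits at protein-coding genes (2.46%) and in 10 of 19973 promoters of the same length (0.0501%). TTTCAG stood at 1 of the 23 summits, at 6.58% of summits at protein-coding genes and in 25.7% of promoters. A word that is missing says only that these letters are not in the window.

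The 5 six-base words shown in capitals above were chosen after the data were seen, as those most in excess at 1238 protein-coding summits that belong to no member over their flanks 500 bp away; both strands were searched, and these words can overlap each other. The word ACGCGC stood within 50 bases of 11 of 23 member summits (47.8%), 10 at factors and 1 at a synthetase, against 19.2% of the other summits and 1.79% of promoters. At the flanks of the member summits it was found at none of 23 on either side. GAGCGC stood at 5 member summits (21.7%, others 17.5%, promoters 1.58%), GAGAGA at 4 (17.4%, others 21.2%, promoters 8.86%), and GCGCAC and GACGCA at 2 each (8.70%, others 18.8%; promoters 1.69% and 2.65%). Any of the words was found at 15 member summits (65.2%), close to the 62.3% of the other summits. Among members, then, ACGCGC was the most frequent of the 5; the difference from the other summits was not tested. The median GC content of these windows was 46.5% at member summits and 47.5% at protein-coding summits, against 32.7% in promoters.

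Other genes of translation had a thresholded summit at a share between those of the factors and the synthetases. Of 35 listed symbols, 29 matched a protein-coding gene, and 8 of these (27.6%) had a thresholded summit, against 8.35% of all protein-coding genes. drr-2, an eIF4H-like factor, had the highest signal of these, 155.3 at −171 bp, with 65.7 in replicate 1 and 87.0 in replicate 2. gcn-2, the kinase that phosphorylates eIF2 when charged tRNAs run low, had 75.2 and its activator gcn-1 had 33.6. erfa-3, a termination factor, had 53.5, and daf-15, the partner of the kinase TOR, had 39.6. The mitochondrial elongation factor genes gfm-1 and tufm-1 had 53.0 and 35.3. fars-3, which codes for a phenylalanyl-tRNA synthetase subunit but falls outside the naming rule, had 35.7. In the pooled list 18 of the 29 genes (62.1%) had a summit, in replicate 1 there were 19 (65.5%) and in replicate 2 there were 22 (75.9%). The shares of all protein-coding genes in these lists were 37.9%, 38.4% and 38.7%. In replicate 2 the share was close to that of factors (74.4%). No intervals are given for these 29 genes, and their order against factors and synthetases was not tested.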

How the data were processed

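SNPC-4 ChIP-seq was available for 2 biological replicates of L1 larvae in 1 group, with fragments of 150 to 350 bp per the labels. Peaks were called by the authors against a control and thresholded by the irreproducible discovery rate, per the notes deposited with the lists; for aligner and caller, name and version were not given in the sources used here. The deposited signal of each peak is the authors' enrichment value, on a scale the sources do not state, and it was read only within a list. Summits were placed with deposited column 10, the bases between a peak's start and its highest point. Depth is unknown, so a signal has no counting error here. Columns of other samples numbered 0. Lists on build ce10 were not used.

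Gene models came from Ensembl 115 and product names and sequence from RefSeq, all on the assembly of build ce11. The members, the list of other translation genes and the measures were chosen with earlier results of these data known, and no test was run. Shares have exact 95% binomial intervals (scipy). A replicate summit was matched to a thresholded one within 100 bp. Every member with a thresholded summit is named; then the 10 of highest pooled signal with a summit in the pooled and both replicate lists, the members nearest the 500 bp limit, those in no list, and the other translation genes with a thresholded summit. Further members are named with their role group and were chosen after their values were seen. The search for the nearest summit was tested on simulated data with planted summits. Alternatives were windows of 250 and 1000 bp, the upper part of the list by signal (1173 peaks), the gene record's 5′ end, the peak interval, the nearest gene alone, no summits near small RNA starts, and each replicate left out. The work was done with scipy 1.17.1, pandas 2.3.3 and numpy 2.4.6 under Python 3.11.15, and figures were drawn with matplotlib 3.10.9.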

Additional observations from a re-analysis of the deposited data

How the results depend on the processing

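A window of 250 bp left 14 members with a thresholded summit, 12 factors and 2 synthetases (1 with the suffix 1), against 5.42% of all protein-coding genes. The upper part of the list by signal left 13 members, 11 factors and 2 synthetases (1 with the suffix 1), against 4.47%. A window of 1000 bp gave 6 synthetases (19.4%), against 10.8% of all protein-coding genes, with 2 of the suffix 2 in place of 1. Leaving out each replicate in turn, by taking the 2347 highest peaks of the other, gave 4 to 7 synthetases. Of these, 3 to 5 had the suffix 1 and 1 to 2 the suffix 2. The higher values came without replicate 2, where the synthetase share was 22.6%, against 8.23% of all protein-coding genes. Without replicate 1 these shares were 12.9% and 8.04%. With either replicate left out, the members numbered 21 to 27 and the factors 17 to 20. eef-1G was gained both ways, and eif-3.D, eif-2Bbeta and ife-3 were lost without replicate 1, eif-3.G, ife-2 and mars-1 without replicate 2. The gene record's 5′ end, the peak interval and the removal of summits near small RNA starts left the count of 23. The factors had a higher share than the synthetases under each of these alternatives. No paired analysis was possible because there is 1 group and no test.

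A peak list without reads sets the limits. A gene absent from a list had no peak there, which is not a measured level of 0, and depth could not be weighed. A summit at a shared promoter counts for each gene within the window.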

Other observations

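abcf-3, one of the other translation genes, had a summit in replicate 1 (−168 bp, signal 21.3) and in replicate 2 (−209 bp, 24.2) with none in the pooled list, as had eef-1G; it was picked after its values were seen. The members on chromosome I numbered 21, of which 7 had a thresholded summit (33.3%), and those on chromosome II 16, also with 7 (43.8%). On chromosome III 3 of 12 had one, on chromosome IV 2 of 10, on chromosome V 2 of 8 and on chromosome X 2 of 3. The exact binomial intervals of these shares overlap, from 14.6 to 57.0% on chromosome I and from 9.43 to 99.2% on chromosome X. The share of all protein-coding genes with a summit was not computed for each chromosome. A difference between chromosomes was therefore not tested, and none is read from these counts.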
